A study of Mus musculus with 4 samples.

Results

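The genes described here are 10 antioxidant genes of the glutathione and Nrf2 systems, Gpx1, Gpx2, Gpx4, Nfe2l2, Nqo1, Gclc, Gclm, Txnrd1, Srxn1 and Sod1. They were taken by name from the 55487 genes in the tables, by a rule that sets no threshold on their values but was written with earlier results of these data known, and all 10 passed the filter on low counts that kept 17155 genes for testing. Mouse small intestinal (SI) organoids are epithelial cultures grown from intestinal crypts. They were infected with lentivirus expressing either a miRNA mimic control or a miR-181a-5p mimic, and both groups were then kept in puromycin at 2 μg/ml so that infected cells were selected. RNA-seq was performed on 2 libraries with the mimic control, replicates 1 and 2, and on 2 with the miR-181a-5p mimic, replicates 3 and 4, to look for molecules that act downstream of the miRNA in proliferation and differentiation. The mouse strain, sex and age are not given in the sources used here, nor is whether libraries of a group came from separate infections, so p-values measure the spread between these libraries.

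Nrf2, the protein encoded by Nfe2l2, is a transcription factor that Keap1 normally marks for degradation. Oxidants and electrophiles release it, and it then binds antioxidant response elements (AREs) with small Maf proteins and raises transcription of detoxifying enzymes. Glutathione is the main small thiol of the cell. It is made in steps of which glutamate-cysteine ligase, encoded by Gclc and Gclm, is rate-limiting, and glutathione peroxidases use it to reduce peroxides. The thioredoxin system runs in parallel, and in the intestinal epithelium both systems face oxidants from the lumen, the microbiota and the cells' own respiration.

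The mimic supplies the mature miRNA whose seed (bases 2 to 8, in capitals) pairs with target mRNAs. It is shown because the 3′ UTRs of the redox genes were searched for its match. The sequence is from RefSeq (GRCm38.p6), where the same mature miRNA is encoded at chr1:137966468-137966490 and chr2:38852741-38852763, both on the plus strand.
mmu-miR-181a-5p: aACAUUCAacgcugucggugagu
The genes of its precursors, Mir181a-1 and Mir181a-2, had 0 counts in every library, so these libraries gave no measure of the mimic itself. The match to the seed, TGAATGT, was found in the longest annotated 3′ UTR of 1 of the 10 genes, Gclm. Among tested genes with a 3′ UTR of at least 50 bases, 19.1% of 12913 held it. The Gclm 3′ UTR is 4335 bases long, against a median of 1334 over those genes, and the match (in capitals) begins at its base 2190 and is followed by A.
Gclm 3′ UTR: aaaagatatattTGAATGTagtgacccaga
The other 9 genes had 3′ UTRs of 72 bases (Sod1) to 2184 bases (Srxn1) without this match. Of these 9, only Srxn1 held the shorter match that leaves out base 8 of the miRNA, at 2 places. How many of all tested genes hold the shorter match was not counted.

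The libraries held 31104884 to 38111731 expected counts, RSEM's estimates of reads per gene, and their TMM factors lay between 0.98 and 1.01. Libraries of a group were not copies of each other, since their counts differed with a chi-square of 30.4 per degree of freedom between the controls and of 16.5 between the mimic libraries. In the quasi-likelihood test of edgeR, with Benjamini-Hochberg adjustment over all tested genes, 220 genes were higher and 392 lower with the mimic at an adjusted p under 0.05, or 272 and 313 when libraries were scaled by their totals alone. Epithelial markers were high in every library, with a summed TPM of 2643 to 3125 over 8 genes, whereas 8 mesenchymal genes summed to 2.54 to 7.26 and 8 leukocyte and endothelial genes to 2.68 to 3.50. Col1a2, Col3a1, Dcn, Lum and Kdr were at 0 in all libraries.

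Among the 10 redox genes, Gpx2 rose with the miR-181a-5p mimic and no other gene passed the adjusted threshold. Over all tested genes, 1.28% were called higher and 2.29% lower. When control replicate 2 or mimic replicate 4 was left out, more of all genes were called in both directions. Whether redox genes passed the threshold in those fits more often than other genes was not tested. Gpx2 more than doubled in normalized CPM, that is CPM after TMM scaling of the libraries, from 88.6 ± 11.8 to 228 ± 35.7 (SD, n = 2). The log2 fold changes of 8 of the 10 genes were above 0, against 48.6% of all tested genes, and their median was 0.18, against -0.01. Both mimic libraries were above both controls for 5 genes, Gpx2, Nqo1, Gclc, Gclm and Srxn1, an order that 28.9% of all tested genes had. They were below both controls for Gpx1 alone, an order that 29.5% of all tested genes had. At an unadjusted p under 0.05, Gpx2, Nqo1, Gclc and Srxn1 were higher and Gpx1 was lower, where 11.8% of all tested genes were higher and 13% lower.

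**Figure D1:**
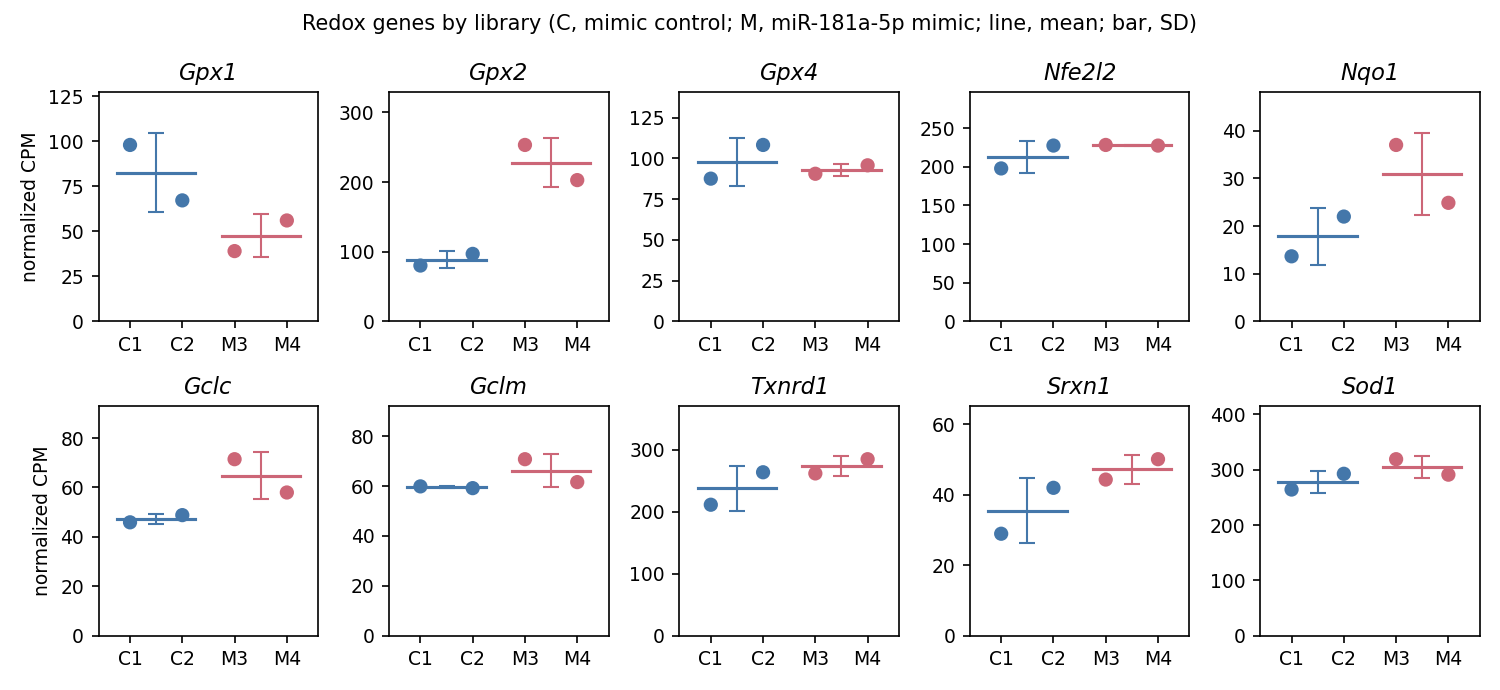
Normalized CPM of the 10 redox genes in each library, with mimic control replicates 1 and 2 as C1 and C2 and miR-181a-5p mimic replicates 3 and 4 as M3 and M4. Points are libraries, lines are group means and bars are SD (n = 2), and each panel has its own linear axis from 0. Gpx2 stands at 80.2 and 96.9 in the controls and at 253 and 203 with the mimic, and Gpx1 goes the other way.

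Of the 3 glutathione peroxidase genes, Gpx2 rose, Gpx1 was below its controls in both mimic libraries without passing the threshold, and Gpx4 overlapped its controls. Gpx2, which encodes the gastrointestinal form of the enzyme and is located in GRCm38 on chromosome 12, from 76792333 to 76795554 on the minus strand, had 80.2 and 96.9 normalized CPM in the controls, against 253 and 203 with the mimic. Both mimic libraries were more than 100 normalized CPM above the higher control. The change was 2.58-fold, or 1.36 ± 0.14 (standard error, SE) on the log2 scale, with an adjusted p of 0.00778 in edgeR, and Gpx2 was the only redox gene past a 2-fold change as well. Over all tested genes 0.589% were called higher and 1.47% lower with that added criterion. Gpx2 ranked 9 by p-value and 80 by log2 fold change among the 220 genes called higher. Its log2 fold change stayed between 1.20 and 1.52 when any 1 library was left out, and its adjusted p was 0.000239 to 0.00196 in those fits. In limma fits to TPM it was past the threshold at a pseudocount of 1 (adjusted p = 0.0373) but neither at 0.1 (adjusted p = 0.0507) nor at 1 without a filter on low values (adjusted p = 0.264). The expected counts of Gpx2 were not whole numbers, so some reads were divided between similar sequences. Its pseudogene Gpx2-ps1 had 1.12 to 10.2 expected counts per library, at most 0.143% of both genes together. On the opposite strand Gpx2 overlaps Fntb, which had 14.6 to 17.5 normalized CPM and an adjusted p of 0.686 in edgeR.

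Gpx1 encodes the widely expressed cytosolic glutathione peroxidase (chromosome 9, from 108338903 to 108340343, plus strand). It had 97.9 and 67.1 normalized CPM in the controls, against 39.0 and 56.0 with the mimic. Both mimic libraries were below both controls, and the spread within each group was wide. On the log2 scale the difference was -0.80 (SE 0.22), and the adjusted p of 0.0852 in edgeR was above the threshold. Without control replicate 2 the log2 fold change was -1.04 (adjusted p = 0.00626), and without mimic replicate 4 it was -1.08 (adjusted p = 0.0124). Without control replicate 1 it was -0.50 (adjusted p = 0.189) and without mimic replicate 3 it was -0.55 (adjusted p = 0.232), all in edgeR, so the side of the threshold depended on which library was left out. By edgeR's exact test Gpx1 was past the threshold, with an adjusted p of 0.0105.

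Gpx4 encodes the enzyme that reduces lipid hydroperoxides in membranes and protects from ferroptosis (chromosome 10, from 80047166 to 80056439, plus strand). It had 87.5 and 108 normalized CPM in the controls, against 90.5 and 95.7 with the mimic, so both mimic libraries lay between the controls. Its log2 fold change was -0.07 (SE 0.12, adjusted p = 0.753 in edgeR), and it turned to 0.09 without control replicate 2. The expected counts of Gpx4 were not whole in any library. Its pseudogene Gpx4-ps2 had 379 to 557 expected counts per library, against 2835 to 3407 for Gpx4.

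Because TPM is scaled per transcript length, the levels of the peroxidase genes can be set side by side on that scale. Gpx2 made up 24.3% and 28.5% of the summed TPM of Gpx1, Gpx2 and Gpx4 in the controls. With the mimic it made up 60.0% and 49.6%. The Gpx1 share was 39.1% and 26.1% in the controls, against 11.8% and 18.0% with the mimic. The ratio of Gpx2 to Gpx1 in TPM was thus 0.621 and 1.09 in the controls, against 5.09 and 2.76 with the mimic. The groups could not overlap in this ratio, since Gpx2 was higher and Gpx1 lower in both mimic libraries. The summed TPM of these 3 genes was 405 and 425 in the controls, against 527 and 559 with the mimic. These are descriptions without a test, since an exact permutation test of 2 libraries against 2 cannot go below p = 0.333.

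**Figure D2:**
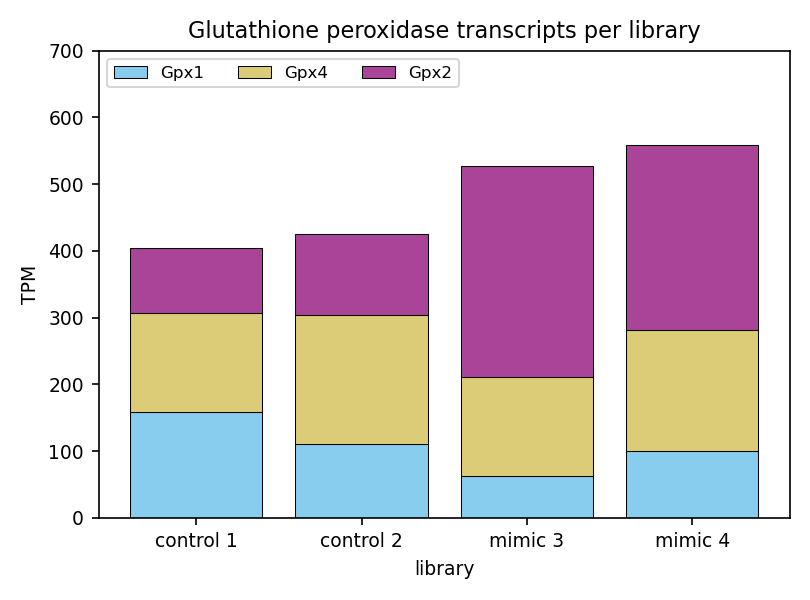
TPM of Gpx1, Gpx4 and Gpx2 in each of the 4 libraries, stacked to their sum on a linear axis from 0. Gpx2 grows from 24.3% and 28.5% of the stack in the control libraries to 60.0% and 49.6% in the mimic libraries, while the Gpx1 segment is shorter in both mimic libraries than in either control.

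Of the remaining genes of the peroxidase family, Gpx3, the secreted plasma form, was near the floor in these organoids. Its normalized CPM was 0.887 and 0.774 in the controls, against 0.192 and 0.365 with the mimic, from 6 to 34 counts per library, and the log2 fold change of -1.55 (SE 0.43) had an adjusted p of 0.0910 in edgeR. Gpx7 had 8 to 37 counts and overlapping groups. Gpx8 was not tested. Of the 6 family genes 5 were tested, and Gpx2 was the only one called.

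Nfe2l2 mRNA, which encodes the regulator itself, did not pass the test. Nfe2l2 (chromosome 2, from 75675513 to 75704641, minus strand) had 198 and 227 normalized CPM in the controls, against 228 and 227 with the mimic. Only control replicate 1 was set apart from the other 3 libraries. The log2 fold change was 0.10 (SE 0.10, adjusted p = 0.586 in edgeR) and was -0.0041 without control replicate 1. An mRNA level does not measure the amount of Nrf2 protein or its activity. Of 10 genes for Nrf2 and its regulators, all were tested and none was called in either direction, with a median log2 fold change of 0.07. At an unadjusted p under 0.05, 1 of the 10 was higher, beside 11.8% of all tested genes. This was Rbx1, the RING subunit of the same ligase as Cul3, named after its values were seen (log2 fold change 0.23, adjusted p = 0.193 in edgeR). Cul3, the scaffold of the ligase that degrades Nrf2 with Keap1, had a value of 0.20 on the log2 scale (SE 0.09, adjusted p = 0.237). Sqstm1, which encodes the Keap1-binding protein p62, had -0.14 (SE 0.09, adjusted p = 0.376, both in edgeR).

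Neither subunit gene of glutamate-cysteine ligase passed the adjusted threshold. Gclc, the catalytic subunit (chromosome 9, from 77754535 to 77794485, plus strand), had 45.9 and 48.8 normalized CPM in the controls, against 71.4 and 58.0 with the mimic. Both mimic libraries were above both controls, and the controls were close together. Its log2 fold change was 0.45 (SE 0.12) with an adjusted p of 0.0887 in edgeR, which did not pass the threshold. Without mimic replicate 4 the adjusted p was 0.0465 at a log2 fold change of 0.60. Without mimic replicate 3 it was 0.431 at 0.30. Gclm, the modifier subunit (chromosome 3, from 122245557 to 122270732, plus strand), had 59.9 and 59.2 normalized CPM in the controls, against 70.8 and 61.6 with the mimic. The groups were apart by less than 2 normalized CPM, and the log2 fold change was 0.15 (SE 0.11, adjusted p = 0.409 in edgeR). Gclm, the gene with the seed match printed above, was therefore not lower in either mimic library. Its annotation overlaps Gm17494 on the opposite strand, which had 81 to 171 counts, and the pseudogene Gm6061. The ratio of Gclc to Gclm in TPM was 0.306 and 0.274 in the controls, against 0.332 and 0.317 with the mimic.

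Of 12 genes for glutathione synthesis and recycling, including Gclc and Gclm, none was called and the median log2 fold change was 0.13. In this list 2 genes of 12 were higher at an unadjusted p under 0.05, Gclc and Gsr, beside 11.8% of all tested genes. Gsr encodes glutathione reductase, which regenerates reduced glutathione with NADPH. It had 236 and 274 normalized CPM in the controls, against 365 and 324 with the mimic. Both mimic libraries were above both controls, and the log2 fold change of 0.44 (SE 0.12) had an adjusted p of 0.0808 in edgeR. The log2 fold change of Gsr ran from 0.33 without control replicate 1 to 0.55 without control replicate 2. Glrx, the gene of the small disulfide reductase glutaredoxin, had a value of -0.07 on the log2 scale (SE 0.09, adjusted p = 0.682 in edgeR).

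In the thioredoxin arm neither redox gene passed the threshold. Txnrd1 encodes cytosolic thioredoxin reductase, a selenoprotein that keeps thioredoxin reduced (chromosome 10, from 82833951 to 82897712, plus strand). It had 211 and 264 normalized CPM in the controls, against 262 and 285 with the mimic. The lower mimic library was just below the higher control, and the log2 fold change was 0.20 (SE 0.13, adjusted p = 0.354 in edgeR). Eid3, which overlaps Txnrd1 on the same strand, had 105 to 165 counts. Srxn1 encodes sulfiredoxin, which repairs overoxidized peroxiredoxins (chromosome 2, from 152105516 to 152111376, plus strand). It had 28.9 and 41.9 normalized CPM in the controls, against 44.3 and 50.03 with the mimic. The groups were apart, but the gap between them was smaller than the distance between the controls. Its log2 fold change was 0.41 (SE 0.18, adjusted p = 0.197 in edgeR). Without control replicate 2 it was 0.71 (adjusted p = 0.0109), and without control replicate 1 it was 0.16 (adjusted p = 0.575).

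Of the 13 genes on the thioredoxin and peroxiredoxin list, 1 was called, and it was lower. This was Txnip, whose protein binds and inhibits thioredoxin and is known to be induced by glucose. Txnip had 1246 and 987 normalized CPM in the controls, against 420 and 502 with the mimic. Both mimic libraries were far below both controls. The log2 fold change was -1.27 (SE 0.15, adjusted p = 0.0101 in edgeR), and it lay between -1.43 and -1.10 when 1 library was left out, each time past the threshold. In the 3 limma fits to TPM its adjusted p was 0.0732 to 0.314. Prdx1, a highly expressed peroxiredoxin, had 439 and 515 normalized CPM in the controls, against 679 and 603 with the mimic. Its change of 0.43 on the log2 scale (SE 0.12) had an adjusted p of 0.0960 in edgeR. Txn1, the gene of cytosolic thioredoxin, named after its values were seen, had 0.38 on the log2 scale (SE 0.11, adjusted p = 0.102 in edgeR). When 1 library was left out, the log2 fold change ran from 0.31 to 0.55 for Prdx1 and from 0.27 to 0.50 for Txn1. The median of the list was 0.05.

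Nqo1 encodes a quinone reductase and is widely used as a readout of Nrf2 activity (chromosome 8, from 107388225 to 107403206, minus strand). It had 13.7 and 22.01 normalized CPM in the controls, against 37.0 and 24.9 with the mimic. Mimic replicate 4 exceeded control replicate 2 by less than the controls differed from each other. Nqo1 had a log2 fold change of 0.80 (SE 0.26, adjusted p = 0.118 in edgeR), as large as that of Gpx1 in the other direction. Without control replicate 2 it was 1.18 (adjusted p = 0.00999) and without mimic replicate 4 it was 1.06 (adjusted p = 0.0233). Without control replicate 1 it was 0.48 (adjusted p = 0.281) and without mimic replicate 3 it was 0.49 (adjusted p = 0.397). On the TPM scale Nqo1 was the lowest of the 10 genes in both controls, at 11.1 and 18.0, and its counts there were 524 and 682.

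Of 19 genes for enzymes known as Nrf2 targets, Nqo1 among them, none was called. Of these, 14 had a log2 fold change above 0, beside 48.6% of all tested genes, and the median was 0.14, beside -0.01. At an unadjusted p under 0.05, 5 were higher and 1 was lower, beside 11.8% and 13% of all tested genes. Fth1 and Ftl1, the ferritin subunit genes with the highest TPM of the list, had log2 fold changes of 0.12 (SE 0.20) and 0.14 (SE 0.13) with overlapping groups. The following members of the list were named after their values were seen. Pgd and G6pdx, which encode the NADPH-forming dehydrogenases of the pentose phosphate pathway, had log2 fold changes of 0.73 (SE 0.17, adjusted p = 0.0636) and 0.45 (SE 0.12, adjusted p = 0.0820). Ugdh, which forms UDP-glucuronate for conjugation, had 1.10 (SE 0.27, adjusted p = 0.0726). Taldo1, the gene of transaldolase in the pentose phosphate pathway, had 0.37 (SE 0.15, adjusted p = 0.172). Blvrb, a biliverdin reductase gene, had -0.66 (SE 0.14, adjusted p = 0.0525). None of these 5 passed the adjusted threshold in edgeR's quasi-likelihood test over the 4 libraries. When 1 library was left out, the log2 fold change ran from 0.485 to 1.01 for Pgd and from 0.318 to 0.586 for G6pdx. For Blvrb it ran from -0.697 to -0.618. Of 15 alternatives, 5 put Pgd past the threshold, 4 each put G6pdx, Ugdh and Blvrb, and 1 put Taldo1. The log2 fold change of Ugdh ran from 0.64 without mimic replicate 3 to 1.45 without mimic replicate 4, and that of Taldo1 from 0.16 without control replicate 1 to 0.62 without control replicate 2. Hmox1, an inducible heme oxygenase gene, had 118 and 231 counts in the controls, against 183 and 203 with the mimic, and its groups overlapped.

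Sod1 encodes cytosolic copper-zinc superoxide dismutase (chromosome 16, from 90220754 to 90226329, plus strand). It had 264 and 293 normalized CPM in the controls, against 319 and 291 with the mimic, and the groups overlapped. Its log2 fold change was 0.13 (SE 0.10, adjusted p = 0.469 in edgeR). Sod1 overlaps Scaf4 on the opposite strand. None of the 4 expected counts of Sod1 was a whole number, whereas those of Scaf4 were whole in all 4 libraries. Of 5 genes for superoxide dismutases, their copper chaperone and catalase, none was called, and the median log2 fold change was -0.15. Cat, the catalase gene, had -0.15 (SE 0.11) and Sod2, the mitochondrial dismutase, 0.09 (SE 0.11), both with overlapping groups. At an unadjusted p under 0.05, 2 of the 5 were lower, beside 13% of all tested genes. These were Ccs, the copper chaperone (-0.37, adjusted p = 0.194), and Sod3, the extracellular dismutase (-2.37, from 3 to 28 counts per library, adjusted p = 0.0795, both in edgeR), which are named after their values were seen, and Sod3 passed the adjusted threshold without control replicate 2.

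**Figure D3:**
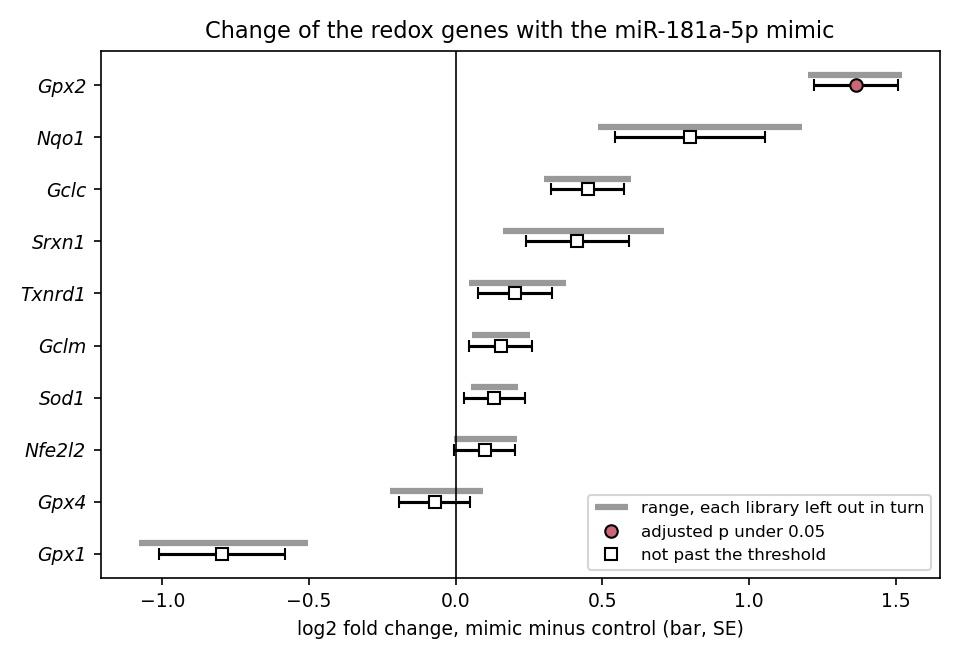
Log2 fold change of each redox gene, miR-181a-5p mimic minus mimic control, from edgeR's quasi-likelihood fit, with bars for the standard error and grey lines for the range when each library is left out in turn. Gpx2 at 1.36 is the only gene with an adjusted p under 0.05 (filled circle), and the left-out ranges of Gpx4 and Nfe2l2 cross 0.

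In the order of levels, given in TPM, Sod1 was first in all 4 libraries, at 538 and 607 in the controls, against 656 and 651 with the mimic. It made up 40.5% to 43.4% of the summed TPM of the 10 genes. Below Sod1, the control order by mean TPM was Gpx4, Gpx1, Nfe2l2, Gpx2, Txnrd1, Gclm, Gclc, Srxn1 and Nqo1. In the controls the neighbours from Gpx4 to Txnrd1 overlapped between libraries, as did Srxn1 and Nqo1, whereas Sod1, Gclm and Gclc each stood apart from their neighbours. With the mimic the order below Sod1 was Gpx2, Gpx4, Nfe2l2, Txnrd1, Gpx1, Gclm, Nqo1, Gclc and Srxn1. Here Gpx2, at 316 and 277 TPM, was apart from Gpx4, at 149 and 181.3 TPM. Nfe2l2 and Txnrd1, Gpx1 and Gclm, Nqo1 and Gclc, and Gclc and Srxn1 overlapped. The summed TPM of all 10 genes was 1244 and 1400 in the controls, against 1568 and 1607 with the mimic. With Gpx2 taken out, these sums overlapped between the groups.

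Gpx1, Gpx2, Gpx4 and Txnrd1 encode selenoproteins, whose selenocysteine is inserted at a UGA codon. On a list of 23 genes for selenoproteins and the selenocysteine machinery, Gpx2 was the 1 gene called, and the median log2 fold change was -0.05. At an unadjusted p under 0.05, 1 gene was higher, Gpx2, and 5 were lower, where 11.8% and 13% of all tested genes were. The 5 lower genes were Gpx1, Gpx3, Selenop, Selenow (-0.79) and Selenoh (-0.81), the last 2 named after their values were seen. When 1 library was left out, the log2 fold change ran from -1.02 to -0.539 for Selenow and from -1.03 to -0.535 for Selenoh. Selenop, the gene of the secreted selenium carrier, had 900 and 533 normalized CPM in the controls, against 339 and 439 with the mimic. Its groups were apart and control replicate 1 was far above the other libraries. The log2 fold change was -0.88 (SE 0.24, adjusted p = 0.0854 in edgeR). It ran from -0.46 without control replicate 1 to -1.20 without control replicate 2. Sephs2, which makes the selenium donor for selenocysteine, had 0.22 (SE 0.10, adjusted p = 0.233 in edgeR). Over all the redox lists together, 80 of 81 genes were tested, 1 was called higher (Gpx2) and 1 lower (Txnip).

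**Figure D4:**
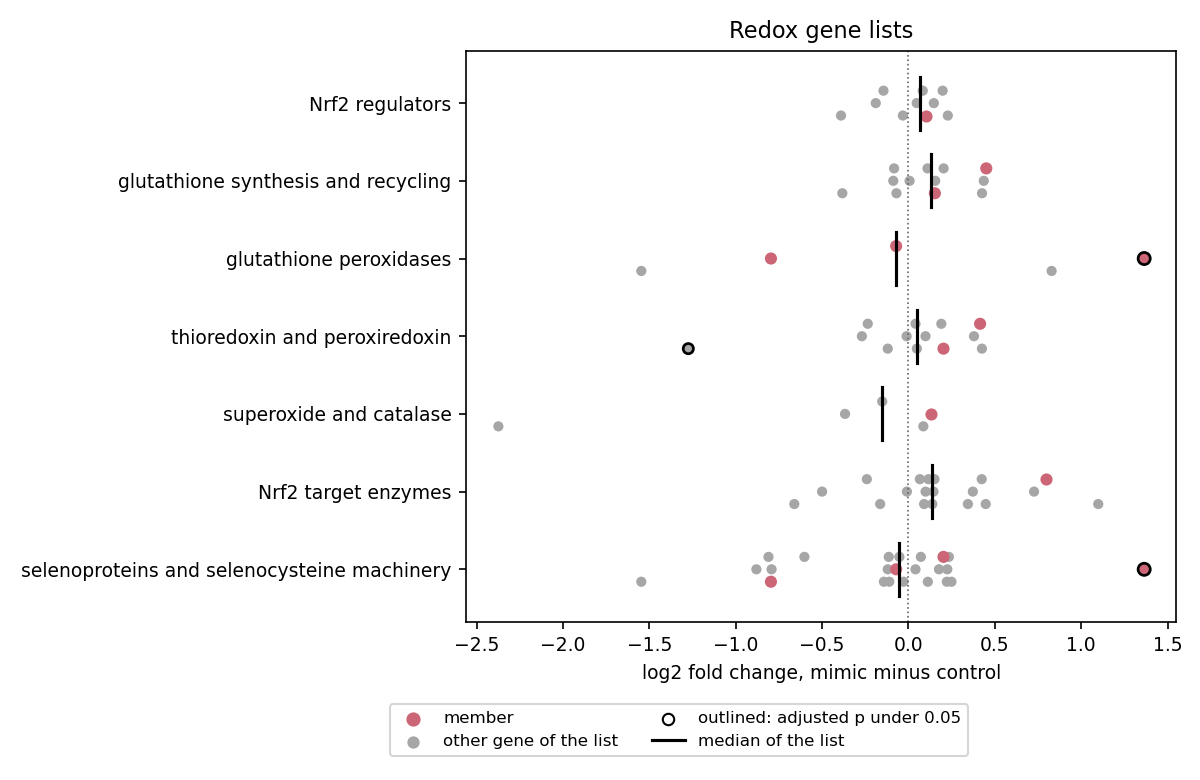
Log2 fold change, miR-181a-5p mimic minus mimic control, of each tested gene on 7 redox gene lists, with the 10 redox genes in red, the other genes of a list in grey and the median of a list as a vertical line. Vertical offsets within a list are for legibility, and a gene can be on several lists. The outlined points are the genes with an adjusted p under 0.05, Gpx2 at 1.36 on the peroxidase and selenoprotein lists and Txnip at -1.27 on the thioredoxin list.

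AREs were sought as the core TGACNNNGC, whose opening letters are shared with AP-1 sites, on both strands of RefSeq promoters (GRCm38.p6) that reach from 250 bases before to 50 bases after a gene's start. All of the genes but Gclc matched an entry, 9 genes with 14 promoters in all, and 5 genes held the core, Nfe2l2, Gclm, Txnrd1, Srxn1 and Sod1. Over all 27025 genes with a promoter 14.0% held it, and of the 16 listed Nrf2 target enzymes with an entry 4 did. The 4 windows that lie before a start are printed on the gene's strand with the core in capitals, to set the matches beside the changes of these genes. The Txnrd1 window belongs to 1 of its 3 listed starts, and the Srxn1 match lies 29 to 37 bases after the start and is not printed. The first is at chr2:75704885-75704913 (minus strand), the second at chr3:122245413-122245441, the third at chr10:82859104-82859132, the last at chr16:90220696-90220724 (plus strands), and the core is on the reverse strand in all but the first.
Nfe2l2: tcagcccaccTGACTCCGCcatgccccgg
Gclm: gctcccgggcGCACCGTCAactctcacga
Txnrd1: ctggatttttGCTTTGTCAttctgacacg
Sod1: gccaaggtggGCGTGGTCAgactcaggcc
The cores began 240, 134, 92 and 56 bases before the start in that order. The log2 fold changes of these 4 genes were 0.10, 0.15, 0.20 and 0.13. That of Srxn1, whose match is not printed, was larger, at 0.41 (SE 0.18, adjusted p = 0.197 in edgeR). The windows of Gpx2, Nqo1, Gpx1 and Gpx4 held no match. Bases farther from these starts were not searched, and binding of Nrf2 to any of these genes was not tested.

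Markers of epithelial cell types moved with the groups in part, and in bulk RNA fewer cells of a type and less RNA per cell cannot be told apart. The summed TPM of 10 enterocyte markers was 3047 and 4260 in the controls, against 2548 and 2488 with the mimic, 7 of the 10 had a log2 fold change below 0, and 1 of them, Anpep, was called lower (-2.14, adjusted p = 0.00812 in edgeR). For 8 stem cell markers the sums were 872 and 637 in the controls, against 745 and 934 with the mimic, and 5 of the 8 had a log2 fold change above 0 with a median of 0.09, while Lgr5 was called lower at -1.38 (adjusted p = 0.0369). For 8 proliferation genes the sums were 751 and 765 in the controls, against 838 and 865 with the mimic, 7 of the 8 had a log2 fold change above 0, and Mcm2 was called higher at 0.51 (adjusted p = 0.0369). For 9 Paneth cell markers the sum was 2341 in control replicate 1 and 1216, 1253 and 1572 in control replicate 2 and mimic replicates 3 and 4, and none was called. For 8 goblet cell markers the sums were 1268 and 1373 in the controls, against 1180 and 1222 with the mimic, but in normalized CPM the same sums overlapped, at 1499 and 1838 in the controls and 2007 and 1592 in the mimic libraries. Of these 8 genes 4 had a log2 fold change above 0 and 4 below, and Spink4 was called lower at -0.59 (adjusted p = 0.0353, all in edgeR). Enteroendocrine markers summed to 279 to 431 and tuft cell markers to 4.76 to 7.90 with overlapping groups, and none was called. Enterocyte and proliferation sums were thus apart between the groups in TPM and in normalized CPM, and goblet cell sums in TPM alone. The enterocyte gap rested on Anpep, at 656 and 448 TPM in the controls, against 103 and 162 with the mimic. With Anpep taken out, the enterocyte sums overlapped on both scales. Proliferation sums in normalized CPM were 2020 and 2041 in the controls, against 2217 and 2079 with the mimic. The part of cell types in the changes of Gpx2 and Txnip was not tested.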

How the data were processed

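RNA-seq was from 4 libraries of mouse SI organoids. The authors used Trimmomatic on single reads of 100 cycles and RSEM on GRCm38, and deposited expected counts per gene, not normalized. They also deposited TPM, scaled for length and to one total per library. The supplemental methods describe rRNA depletion, the labels poly(A) selection. The annotation release and the strand setting of the counting are not given in the sources used here. No sample matched 3 further columns of each table, and these were not used.

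Expected counts were rounded and the groups compared by edgeR 4.0.16 (R 4.3.3, filterByExpr, TMM, estimateDisp, glmQLFit with legacy=FALSE, glmQLFTest, two-sided), with Benjamini-Hochberg adjustment over 17155 genes and a threshold of 0.05. The common biological coefficient of variation was 0.13. A standard error is the log2 fold change divided by the root of F. The steps were tested on simulated counts. GENCODE M21 gave positions and 3′ UTRs, and symbols matched for 55141 of 55487 genes. Members and lists were chosen with earlier results of these data known. Named besides the members were called genes of each redox list, filled to at least 2 per list with those of highest mean TPM, and others are marked. Alternatives were edgeR's likelihood-ratio and exact tests, DESeq2 1.42.0, RLE factors, library totals, no filter, a minimum of 10 counts per library, limma-trend (3.58.1) on log2 TPM with a pseudocount of 1 or 0.1 for genes that reached 1 TPM in 2 libraries, the former also unfiltered, and leaving out each library. The legacy quasi-likelihood form was added after seeing the data. With a pseudocount, log2 fold changes from TPM understate the change of low genes. Plots used matplotlib 3.10.9.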

Additional observations from a re-analysis of the deposited data

How the results depend on the processing

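Calls over all genes were 220 higher and 392 lower. They were 792 and 1072 by edgeR's likelihood-ratio test, 761 and 1027 by its exact test, 634 and 654 by DESeq2, and 67 and 125 without a filter on low counts. On log2(TPM + 1) limma gave 32 and 43, on log2(TPM + 0.1) 11 and 16, and without a filter 2 and 0. At an unadjusted p under 0.05 these limma fits had 2925, 2875 and 3960 genes. Leaving out 1 library gave 159 to 1152 higher and 214 to 1213 lower, with the highest counts without control replicate 2 and the fewest lower calls without mimic replicate 3. With RLE factors (217 and 387), library totals (272 and 313), at least 10 counts in every library (184 and 371) and the legacy form (207 and 373) the counts were within 1.5 times those reported. The median log2 fold change of all genes stayed between -0.023 and 0.065 in every alternative.

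Of the 10 redox genes, 1 was higher and 0 lower, with 4 and 1 at an unadjusted p under 0.05. The likelihood-ratio test, the exact test and DESeq2 each called 3 higher (Gpx2, Nqo1, Gclc) and 1 lower (Gpx1). Each also called more of all genes in both directions, as given above. The limma fits called 1 higher at pseudocount 1, 0 at 0.1 and 0 without a filter, where the adjusted p of Gpx2 was 0.0507 and 0.264. Leaving out control replicate 2 or mimic replicate 4 gave more calls among the 10 genes in both directions, and also over all genes. How these increases compare was not tested. Over 15 alternatives Gpx2 was past the threshold in 13. Gpx4 reversed to 0.0942 without control replicate 2 (lowest value -0.223, without control replicate 1) and Nfe2l2 to -0.0041 without control replicate 1 (highest value 0.208, without control replicate 2). The cause was not tested.

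Of the genes on the redox lists, 1 was higher and 1 lower. By the likelihood-ratio and exact tests they were 8 and 8 of 80. Over all 17155 genes these tests called 792 and 1072, and 761 and 1027. By DESeq2 they were 8 and 5 of 81, beside 634 and 654 of all 29212 genes. In limma they were 1 and 0 on log2(TPM + 1), 0 and 0 on log2(TPM + 0.1) and 0 and 0 without a filter. Leaving out 1 library gave 1 to 13 higher and 1 to 7 lower, with 13 and 7 without control replicate 2, 6 and 4 without mimic replicate 4 and 2 lower without control replicate 1.

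Precision rests on the spread between 2 libraries a group rather than on depth. A fit that leaves out a library has 1 group with a lone library, which is assumed to vary like the other group. Without control replicate 2 or mimic replicate 4, such a fit also called more of all genes in both directions. Whether genes of the redox lists were called more often than other genes in those fits was not tested. Fewer or more calls do not say which result is right. No paired analysis was possible because the groups share no replicate number.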
